A study of Mus musculus with 8 samples.

Results

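The somatostatin system of the mouse genome was read out here as 7 genes chosen by name: the peptide precursors Sst and Cort and the receptors Sstr1, Sstr2, Sstr3, Sstr4 and Sstr5. They were taken by symbol from 20692 measured genes, through 9 RefSeq transcripts. RNA came from td-Tomato-positive cells of the central amygdala of unchallenged male mice, in 8 libraries of about 1000 sorted cells, each from a different mouse. PKCd libraries (n = 4, mice of 9 and 18 weeks) came from PKC delta-type::Cre animals and SST libraries (n = 4, mice of 8 and 20 weeks) from SST::Cre animals, and both lines carried the Rosa::loxP-STOP-loxP-td-Tomato reporter. The reporter marks every cell in which Cre has been active at any time, so a sorted cell need not make the driving gene's RNA at harvest.

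Somatostatin is a small inhibitory peptide of GABA neurons, cut from the end of a longer precursor. Cortistatin is a related peptide from a separate gene that binds the same receptors. The 5 receptors couple to inhibitory G proteins, which lower cyclic AMP, open GIRK potassium channels and close voltage-gated calcium channels. In the central amygdala, SST neurons and PKCd neurons are known as largely separate classes of GABA neuron.

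The stretch of coding sequence that gives both peptides their shared core is shown because the Sst and Cort readouts depend on telling these genes apart. Each line holds 14 codons, 5′ to 3′ on the coding strand, from GENCODE transcripts on GRCm38 (chr16:23889732-23889773 for Sst and chr4:149125270-149125311 for Cort, both minus strand). They end at the last codon of Sst and 1 codon before the last of Cort. Capitals mark the longest run of codons with the same amino acids in both genes.
Sst: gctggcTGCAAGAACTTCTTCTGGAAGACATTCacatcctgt
Cort: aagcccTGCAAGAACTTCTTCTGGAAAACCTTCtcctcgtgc
The run is 9 codons long, with 25 of its 27 bases identical. Over the 14 codons, 31 of 42 bases and 11 of 14 residues were identical. The whole precursors have 116 codons in Sst and 109 in Cort.

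The promoters of Sst and of Sstr2, the receptor with the most reads, are shown because both hold the cyclic AMP response element, the letters through which CREB is known to drive Sst. The 120 bases before each start site are printed from the RefSeq table for GRCm38.p6, at chr16:23890845-23890964 (minus strand) for Sst and chr11:113619207-113619326 (plus strand) for Sstr2. Capitals mark the element.
Sst: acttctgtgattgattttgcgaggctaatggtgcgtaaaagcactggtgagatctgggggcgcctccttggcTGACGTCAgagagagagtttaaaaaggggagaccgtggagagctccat
Sstr2: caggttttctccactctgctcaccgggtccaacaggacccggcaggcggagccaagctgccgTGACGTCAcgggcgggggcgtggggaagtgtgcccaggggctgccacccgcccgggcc
The element, TGACGTCA, reads the same on both strands. It lies 48 to 41 bases before the start in Sst and 58 to 51 bases before it in Sstr2. The gene span of Sst given below reaches 23891342, past the printed stretch, so the start site used here lies inside that span. Windows of 300 bases (250 before and 50 after the start) were held for 5 members, in 6 windows, and 2 of the 6 had the element. Of all 32851 windows in the table, 588 had it (1.79%). A match of letters is a description of the sequence, not of binding.

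Libraries totalled 10316149 to 18242496 estimated counts in mice of 8 to 9 weeks and 964361 to 2522749 in mice of 18 to 20 weeks, so age class and depth cannot be told apart. Levels are given as TPM, the kallisto abundance scaled to transcript length within each library. PKCd replicate 2 stood apart from its population in Sst, so results on Sst that rest on it are given with and without it. The labels do not say whether the sort of that library took in cells of both populations, and this was not tested. All 3 GABA neuron markers were present in PKCd replicates 1 and 2 and in SST replicates 1 and 3; Slc32a1, the vesicular GABA transporter, had no read in the other 4 libraries. Summed GABA neuron markers were 22.9 to 198.8 TPM in PKCd and 6.69 to 109.6 TPM in SST libraries. Microglial markers summed to 33160 to 56970 TPM in PKCd and 506.4 to 7185 TPM in SST libraries, and oligodendrocyte markers to 11670 to 29390 TPM and 9896 to 59180 TPM. In libraries of pooled cells, fewer cells of a type and less RNA per cell cannot be told apart.

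Sst (chromosome 16, 23889573 to 23891342, minus strand, 2 exons), the somatostatin precursor, was the one member read in every library. In PKCd replicates 1 to 4 it stood at 0.209, 222.7, 4.33 and 13.7 TPM, from 1, 662, 1 and 5 reads. In SST replicates 1 to 4 it stood at 294.9, 243.9, 116.3 and 296.2 TPM, from 1327, 895, 44 and 189 reads. PKCd replicate 2 lay within the SST range, while the other 3 PKCd libraries lay below every SST library. Of the 16 pairings of a PKCd with an SST library, 15 had less Sst in the PKCd library.

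**Figure D1:**
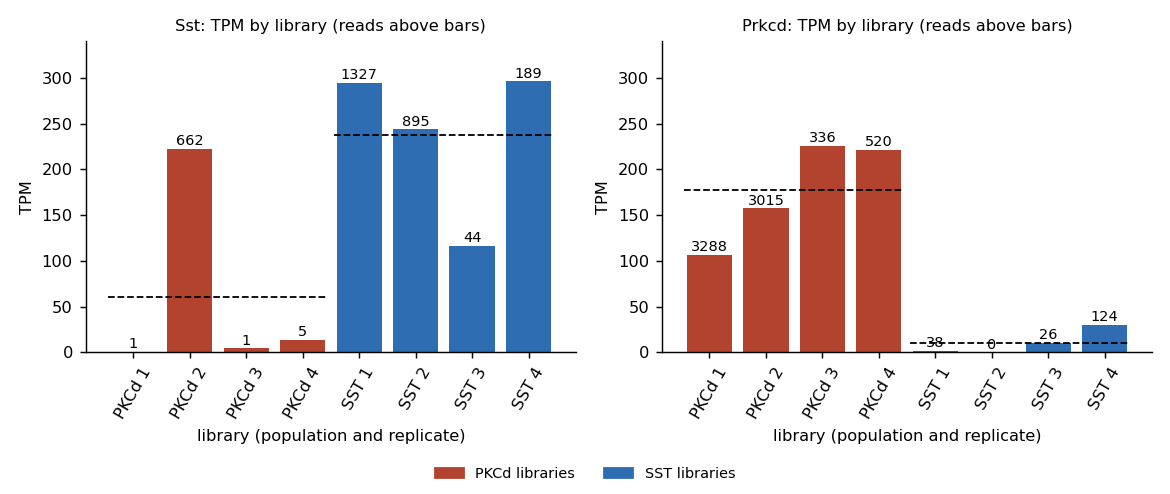
Bars give TPM of Sst (left panel) and Prkcd (right panel) in each of the 8 libraries, PKCd in red and SST in blue, with the number of reads above each bar; dashed lines are means of 4 libraries. Sst in PKCd replicate 2, 222.7 TPM, stands among the SST libraries, while all 4 PKCd libraries have more Prkcd than any SST library.

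Mean Sst was 60.2 ± 108.5 TPM in PKCd and 237.8 ± 84.6 TPM in SST samples (SD, n = 4 each; exact two-sided permutation p = 0.0571, against a smallest possible 0.029, 1 of 7 such tests run on the members and their sum). In edgeR's quasi-likelihood test over all genes the log2 fold change, PKCd minus SST, was -2.78 ± 1.63 (SE; adjusted p = 0.845), so the difference did not pass. It was -4.44 in libraries of 18 to 20 weeks alone (adjusted p = 0.505) and -1.36 in those of 8 to 9 weeks (adjusted p = 0.9997), neither passing in edgeR. With PKCd replicate 2 left out of the younger class, 1 PKCd library with 1 read remains and the value is -10.23 (edgeR adjusted p = 1), its spread being taken from the SST libraries. PKCd replicate 2 held 98.95% of all Sst reads of its population. Without it the log2 fold change was -5.99 (edgeR adjusted p = 0.366), and the other 3 PKCd libraries averaged 6.08 ± 6.92 TPM (SD), from 7 reads. The mean of SST libraries was then 39.1 times theirs, against 3.95 times with all 4.

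Only Sst of the 7 members had enough reads to enter that fit. Among the 11328 genes that did, 32 (0.282%) were called higher in PKCd libraries and 0 (0%) lower at an adjusted p of 0.05, and 756 of them had p below 0.05 before adjustment. With DESeq2 the calls were 362 higher and 92 lower. Sst had an adjusted p of 0.307 in DESeq2. The populations did not overlap in TPM for 786 of those genes (6.94%), and Sst was not among them.

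Prkcd, which encodes the kinase that names the other sort, was measured in the same libraries. It stood at 106.5, 157.5, 225.7 and 221.3 TPM in PKCd replicates 1 to 4 and at 1.31, 0, 10.7 and 30.2 TPM in SST replicates 1 to 4. All PKCd libraries lay above all SST libraries. Of 5 tested PKCd neuron genes, only Prkcd did not overlap between the populations. All 12 microglial markers were also higher in every PKCd than in every SST library, and the part of microglial RNA in Prkcd was not tested. Sst exceeded Prkcd in TPM in all 4 SST libraries and, among PKCd libraries, in replicate 2, where their ratio was 1.41. In the other PKCd libraries Prkcd was 16.2 to 510.6 times Sst. Those ratios rest on 1 to 5 Sst reads per library and are imprecise, the 510.6 resting on 1 read. By level, Sst ranked between place 670 and place 1694 of all genes in SST libraries and at place 826 in PKCd replicate 2.

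PKCd replicate 2 also stood apart in other neuropeptide genes, some of them known from SST neurons of the amygdala or cortex. It had the highest level of Tac2, the neurokinin B precursor, at 106.9 TPM, against 0 in the other PKCd libraries and 0 to 13.3 TPM in SST libraries. Crh, the corticotropin-releasing hormone precursor, stood at 41.8 TPM there and at 0 to 3.36 TPM in the other 7 libraries. Tac1, the substance P precursor, was 75.4 TPM there, 0 to 5.20 TPM in the other PKCd libraries and 6.33 to 316.7 TPM in SST libraries. Penk, the enkephalin precursor and a gene of PKCd neurons, was also highest in PKCd replicate 2, at 1183 TPM. It was 49.45, 136.9 and 118.4 TPM in PKCd replicates 1, 3 and 4 and 131.6 to 304.4 TPM in SST libraries. The sum of GABA neuron markers was highest in PKCd replicate 2 as well, at 198.8 TPM.

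Pdyn and Nts went another way. Pdyn, the dynorphin precursor, stood at 0, 0.0636, 0 and 1.04 TPM in PKCd replicates 1 to 4 and at 26.6, 74.7, 43.0 and 27.8 TPM in SST replicates 1 to 4, so the populations did not overlap and PKCd replicate 2 lay with its own. Its difference did not pass edgeR over all genes (adjusted p = 0.155) and passed DESeq2 (adjusted p = 2.3e-07); the 4 PKCd libraries held 3 reads of it. Nts, the neurotensin precursor, was 0, 0.137, 130.5 and 74.9 TPM in PKCd replicates 1 to 4 and 402.8, 64.9, 235 and 196.2 TPM in SST replicates 1 to 4. The difference of Nts did not pass edgeR (adjusted p = 0.789) and passed DESeq2 (adjusted p = 0.00275). Npy, which encodes neuropeptide Y, had 0 reads in PKCd replicate 2.

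**Figure D2:**
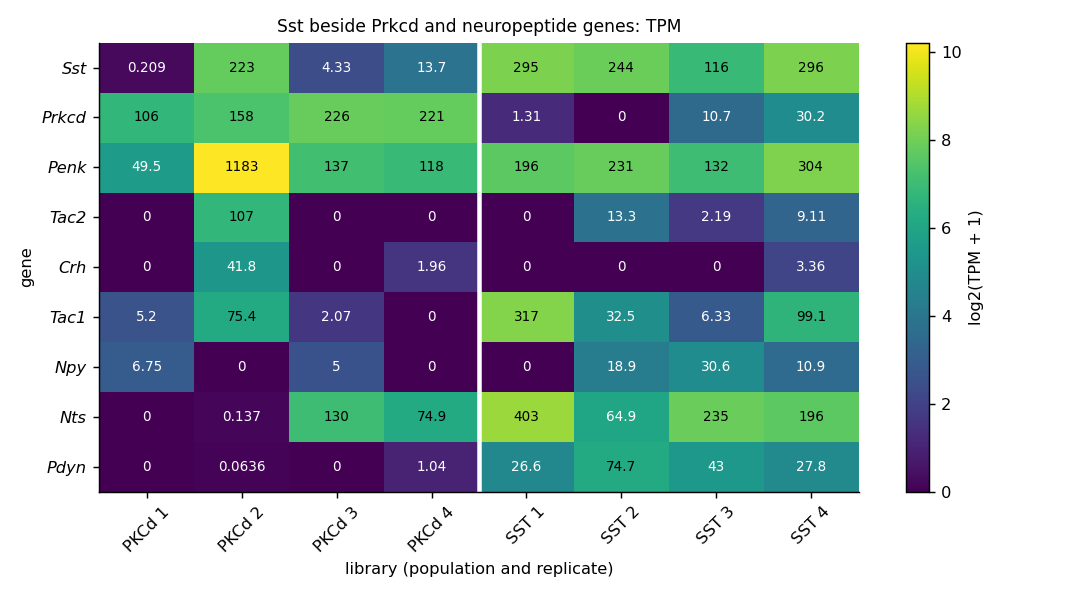
Cells give TPM of Sst, Prkcd and 7 neuropeptide genes (rows) in the 8 libraries (columns, PKCd left of the white line and SST right of it), coloured by log2(TPM + 1). PKCd replicate 2 has Sst, Tac2, Crh, Tac1 and Penk together at 41.8 TPM or more, with Pdyn and Nts at 0.137 TPM or less.

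By the list of 9 such peptide and enzyme genes, 4 could be tested and 0 passed in edgeR, with a median log2 fold change of -4.62. Pdyn entered the fit through its SST reads, so the median does not stand for the whole list. Among untested genes, Tac2 and Crh had higher means in PKCd libraries, at 26.7 and 10.9 TPM against 6.16 and 0.839 TPM. Both rested mainly on PKCd replicate 2. Npy and Crhbp had higher means in SST libraries. Of the tested genes Pdyn was the lowest, and the highest was Chodl, a membrane protein of cortical SST neurons, at 5.20 ± 4.00 (SE; edgeR adjusted p = 0.888), which had 739 of its reads in PKCd replicate 2. Without that library Chodl was at 3.54 ± 2.80 (SE; edgeR adjusted p = 0.948) and the median of the 4 tested genes at -4.05. Nos1, the neuronal nitric oxide synthase, was listed at 0 in all 8 libraries. Crhbp, the binding protein of corticotropin-releasing hormone, was above 0 only in SST replicate 4, at 0.846 TPM.

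Cort (chromosome 4, 149125034 to 149126763, minus strand, 2 exons), the cortistatin precursor, had 0 reads in all 8 libraries, out of 65468283 estimated counts in all. At 0 reads a level of up to 3 counts remains possible, which for Cort is 0.837 TPM in the deepest library, PKCd replicate 1, and 17.4 TPM in the shallowest, PKCd replicate 3. These limits cover counting error only. Ghsr, the ghrelin receptor, which also binds cortistatin, had 0 TPM in 7 libraries and 0.592 TPM in SST replicate 4.

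The receptors were read in few libraries. Of 40 receptor values (5 genes in 8 libraries), 9 had a read, and PKCd replicates 2 and 3 and SST replicate 3 had none for any receptor. The 4 PKCd libraries held 148 receptor reads and the 4 SST libraries 426.

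Sstr2 (chromosome 11, 113619327 to 113626028, plus strand), the most widely used somatostatin receptor of forebrain neurons, held 471 of the 574 receptor reads. It stood at 6.23 TPM in PKCd replicate 1 (97 reads) and had 0 reads in PKCd replicates 2, 3 and 4. In SST libraries it stood at 33.0 TPM in replicate 2 (360 reads) and 7.34 TPM in replicate 4 (14 reads), with 0 reads in replicates 1 and 3. The populations overlapped, averaging 1.56 ± 3.11 TPM (PKCd) and 10.1 ± 15.7 TPM (SST; SD over 4 libraries each, exact two-sided permutation p = 0.429). Without SST replicate 2 the difference, PKCd minus SST, was -0.89 TPM, against -8.54 TPM with it.

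Libraries without Sstr2 reads included deep ones. SST replicate 1 was nearly as deep as SST replicate 2, and the limit for its 0 reads was 0.200 TPM. In PKCd replicate 2 the limit was 0.303 TPM, below the 6.23 TPM of PKCd replicate 1. These limits are 3 counts of the longest Sstr2 transcript, and a shorter transcript gives a somewhat higher limit. In the shallow PKCd replicates 3 and 4 and SST replicate 3 the limits were 3.89, 2.47 and 2.38 TPM, under the level of each library in which Sstr2 was read.

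Markers of cell types and an overlapping gene were measured beside Sstr2. The sum of 5 oligodendrocyte precursor markers was highest in the same 2 deep libraries, 523 TPM in PKCd replicate 1 and 2098 TPM in SST replicate 2. It was 33.6 to 237.7 TPM in the other 6, and 53.9 TPM in SST replicate 4, which also had Sstr2 reads. Olig1 gave 470.5 TPM of the sum in PKCd replicate 1, and Olig1 and Olig2 were each highest in those 2 libraries. Pdgfra, Cspg4 and Gpr17 were 4.82, 6.46 and 2.18 TPM in PKCd replicate 1. They were higher in SST replicate 3, which had no Sstr2 read, at 50.9, 30.6 and 18.0 TPM. Summed neuron markers were also high in the 2 deep libraries with Sstr2, at 526.1 TPM in PKCd replicate 1 and 492.9 TPM in SST replicate 2. Their sum was highest, at 588.2 TPM, in PKCd replicate 2, which had no Sstr2 read. In SST replicate 4, with Sstr2 reads, it was 171.9 TPM. Sstr2 lies within the span of Slc39a11, a zinc transporter on the other strand, with 0 shared exon bases. Slc39a11 was 12.5, 17.1, 49.4 and 0.869 TPM in PKCd replicates 1 to 4 and 0, 1.73, 11.3 and 0 TPM in SST replicates 1 to 4, so it was highest in a library without Sstr2. The counting is not stated to use strand. The part of these cell types or of Slc39a11 in the Sstr2 reads was not tested.

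The reads of Sstr2 were divided by the authors' tool between a transcript of 1342 bases and one of 1532 bases. The longer took 82.3% of Sstr2 TPM in PKCd replicate 1, and 23.7% and 27.7% in SST replicates 2 and 4. Reads from bases that both transcripts share are divided by estimation, and with 1 PKCd library it has no replicate check.

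Sstr1 (chromosome 12, 58211421 to 58216037), a receptor known from presynaptic sites, had 0 reads in all 4 PKCd libraries and was read in 2 SST libraries. It stood at 1.14 TPM in SST replicate 1 (47 reads) and at 0.683 TPM in SST replicate 4 (4 reads), with 0 reads in SST replicates 2 and 3. The mean was 0 TPM in PKCd and 0.455 ± 0.558 TPM in the SST group (SD over 4 libraries each, exact two-sided permutation p = 0.429). The limit for 0 reads was 0.0682 to 1.41 TPM in PKCd libraries, so a level like the 0.683 TPM of SST replicate 4 could not be told from 0 in PKCd replicates 3 and 4, nor one like the 1.14 TPM of SST replicate 1 in PKCd replicate 3.

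Sstr3 (chromosome 15, 78537014 to 78549365), the receptor of the neuronal primary cilium, was read in PKCd replicate 1 alone, at 1.10 TPM (49 reads). Sstr4 (chromosome 2, 148395377 to 148396764), a receptor of a single exon, had 1 read in PKCd replicate 4 and 1 in SST replicate 4. Sstr5 (chromosome 17, 25489875 to 25497288), which is best known from the pituitary and pancreas, had 1 read in PKCd replicate 4. With so few reads Sstr4 and Sstr5 give no comparison between the populations.

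**Figure D3:**
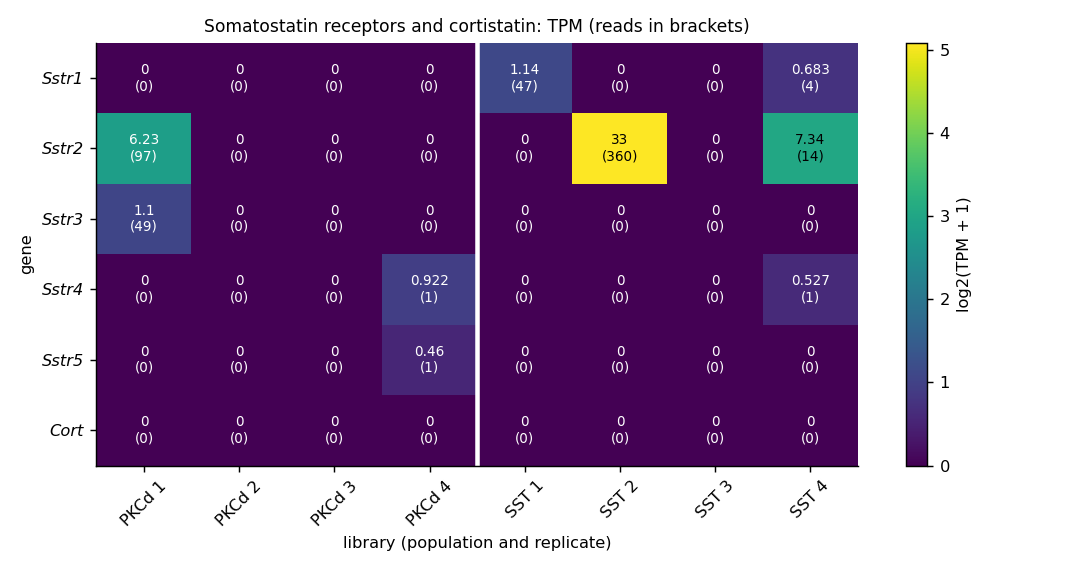
Cells give TPM, with reads in brackets, of the 5 receptors and Cort (rows) in the 8 libraries (columns, PKCd left of the white line and SST right of it), coloured by log2(TPM + 1). Sstr2 in SST replicate 2 is the highest value at 33.0 TPM, and Cort has 0 reads throughout.

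Summed over the 5 receptors the level was 7.32, 0, 0 and 1.38 TPM in PKCd replicates 1 to 4 and 1.14, 33.0, 0 and 8.55 TPM in SST replicates 1 to 4. The populations overlapped, with means of 2.18 ± 3.49 TPM (PKCd) and 10.7 ± 15.4 TPM (SST; SD over 4 libraries each, exact two-sided permutation p = 0.371). Without SST replicate 2 the difference, PKCd minus SST, shrank to -1.05 TPM, against -8.50 TPM with all libraries. The leading receptor differed between libraries of one population. Sstr2 made up 85.0% of receptor TPM in PKCd replicate 1, 100% in SST replicate 2 and 85.8% in SST replicate 4, while in SST replicate 1 Sstr1 was the one receptor read. Sst exceeded the receptor sum in every library with receptor reads except PKCd replicate 1, by 9.91 times in PKCd replicate 4 and by 7.38 to 259 times in SST replicates 1, 2 and 4.

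Fitted without a filter on low counts, edgeR tested 16834 genes and called 269 of them (1.6%) in either direction, and 0 of the 6 members with reads. Among the receptors the lowest unadjusted p was 0.0894, for Sstr1 (adjusted p = 0.806). Sst had an unadjusted p of 0.0348 there and an adjusted p of 0.5555 in edgeR.

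Between age classes, Sst stood at 107.6 ± 135.6 TPM in older and 190.4 ± 130.4 TPM in younger mice (SD, n = 4 each). The log2 fold change, older minus younger, was -2.18 ± 1.61 (SE; edgeR adjusted p = 0.748), and it changed sign to 0.72 without PKCd replicate 2. In that comparison 6 of 11328 genes (0.053%) were called in either direction, none of them a member. Receptor reads were 21 in the 4 older and 553 in the 4 younger libraries, which were also the deeper ones. The interaction of population and age class for Sst did not pass (-3.19 ± 2.91, SE; edgeR adjusted p = 0.9997), and its sign turned without PKCd replicate 2, to 5.58 ± 2.59 (SE; edgeR adjusted p = 0.9998).

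The machinery around the peptide and its receptors was read from 13 lists of 72 genes, including the peptide list above and genes of PKCd neurons. Of 55 genes that could be tested, 0 passed in edgeR, 10 had an unadjusted p under 0.05 (6.67% of all tested genes did) and 8 passed in DESeq2 (4.01% of all tested genes did). Their median log2 fold change was 0.25, against -0.08 over all genes. The populations did not overlap for 8 of the 55 (14.5%), against the 6.94% of all tested genes given above. Among them were Pdyn, Pcsk2, Scg5, Adcy7, Ptpn6, Arrb2 and Prkcd. The genes that passed in DESeq2 included Pdyn, Nts, Pcsk2, Adcy7, Ptpn6, Arrb2 and Prkcd (DESeq2 adjusted p 3.0e-09 to 0.0040). The lists were chosen with earlier results of these data known, and they hold Prkcd, the gene that names the PKCd sort. Pdyn and Adcy7 entered the fit through the population in which they were high. The shares set beside all tested genes are therefore descriptions and no test of the lists.

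Of the 6 genes that cut or chaperone the precursor, 4 were tested, with a median of -1.16. Pcsk2, the neuronal prohormone convertase, was the lowest at -4.72 ± 1.54 (SE; edgeR adjusted p = 0.436). It stood at 4.04, 1.36, 0 and 0 TPM in PKCd replicates 1 to 4 and at 10.3, 41.4, 10.2 and 6.49 TPM in SST replicates 1 to 4, so every SST library lay above every PKCd library. Scg5, the chaperone of that convertase, was 40.8 to 127.9 TPM in PKCd and 165.6 to 264.6 TPM in SST libraries (edgeR adjusted p = 0.568). Nrdc, a dibasic convertase, was the highest at 0.60 ± 0.65. Furin, the convertase of the general secretory pathway, reached 2.31 TPM and Pcsk1, a second neuroendocrine convertase, 2.63 TPM, both too low to test.

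The inhibitory G protein alpha subunits, through which the receptors signal, had a median of 0.25 over 5 tested genes. Gnai2 was the highest at 1.15 ± 0.67 and Gnaz the lowest at -1.98 ± 2.08 (SE), and each overlapped between populations. Of 8 adenylyl cyclases, the enzymes that make cyclic AMP, some of which these subunits inhibit, 7 were tested, with a median of -0.61. Adcy7 was read in all PKCd libraries, at 8.03, 31.6, 11.5 and 4.20 TPM, and had 0 reads in the 4 SST libraries (edgeR adjusted p = 0.0907). Adcy2 was the lowest at -3.46 ± 2.30.

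The 4 GIRK channel subunits were all too low to test, with sums of 3.54, 10.7, 1.36 and 0.51 TPM in PKCd replicates 1 to 4 and 0, 2.38, 0 and 0.978 TPM in SST replicates 1 to 4. Calcium channel alpha1 subunits had a median of -0.36 over 4 tested genes, from Cacna1b, the N-type channel, at -2.93 ± 2.22 to Cacna1d, an L-type channel, at 1.30 ± 1.63 (SE).

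The tyrosine phosphatases that carry growth-inhibitory signals of the receptors were all positive, with a median of 2.71 over 3 genes and 0 passing in edgeR. Ptpn6 was 136.2, 77.5, 311.7 and 227.4 TPM in PKCd replicates 1 to 4 and 4.49, 0, 37.7 and 1.86 TPM in SST replicates 1 to 4 (log2 fold change 4.58 ± 1.31 SE, edgeR adjusted p = 0.302). Ptpn11 was the lowest of them at 0.81 ± 0.76. Among 6 genes of receptor desensitisation the median was 1.25, and Arrb2, a beta-arrestin, stood at 79.8 to 136.9 TPM in PKCd and 11.0 to 21.7 TPM in SST libraries (2.75 ± 0.65 SE, edgeR adjusted p = 0.169). Grk5, a receptor kinase, was the lowest at -3.39 ± 2.67.

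Ptpn6, Arrb2 and Adcy7 are also genes of myeloid cells, the cells to which microglia belong. All 12 microglial markers were higher in every PKCd than in every SST library, with a median log2 fold change of 4.26 and 4 of 12 passing in edgeR. The part of microglial RNA in these 3 genes was not tested.

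Receptor scaffolds had a median of 0.23 over 5 genes, from Mpdz at -1.21 ± 1.47 to Dlg4 at 1.09 ± 2.22 (SE). Peptidases that degrade somatostatin had a median of 0.16 over 3 tested genes, from Nln at -0.70 ± 1.60 to Thop1 at 0.80 ± 2.27, and Mme, which encodes neprilysin, was listed at 0 in every library. Regulators of Sst transcription and of SST interneuron fate had a median of 0.50 over 9 tested genes. Crem, a cyclic AMP response factor, was the lowest of these at -1.52 ± 2.01 (SE). Creb1, which encodes CREB, known to drive Sst through such an element, was 0.50 ± 0.87, and binding was not measured. Lhx6, a factor of cortical SST interneurons, was at most 0.579 TPM. In the list of PKCd neuron genes the median was 0.64 over 5 tested genes, from Calcrl, a chain of the CGRP receptor, at -0.89 ± 0.96 to Prkcd at 5.36 ± 1.36 (edgeR adjusted p = 0.219).

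**Figure D4:**
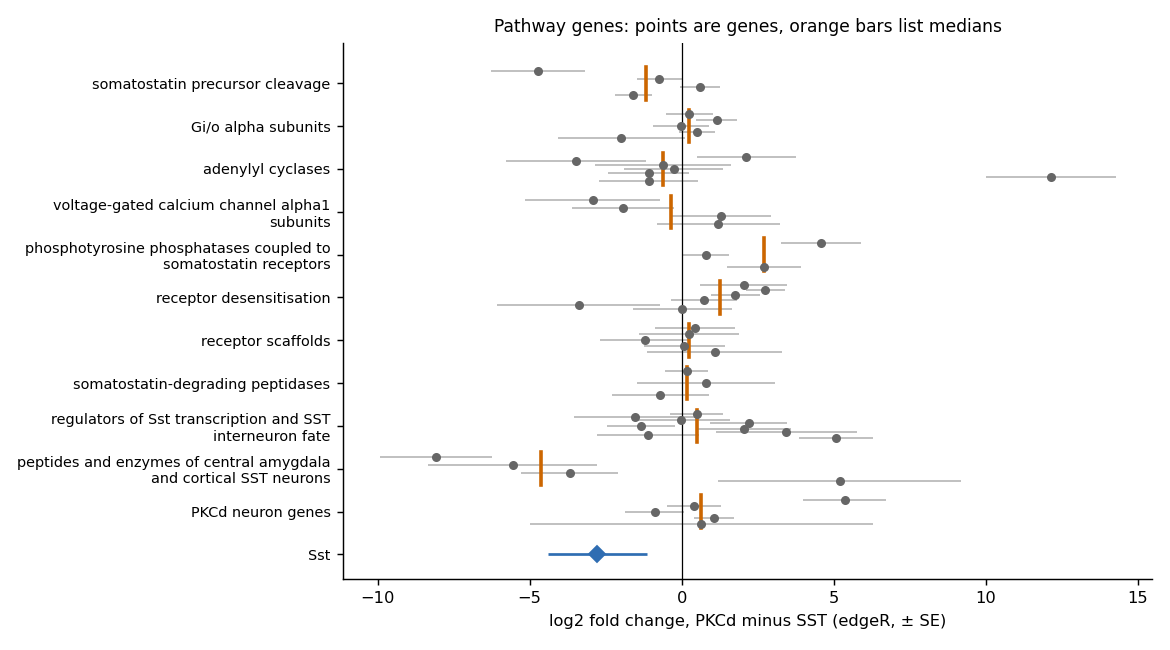
Points are the log2 fold changes (PKCd minus SST, edgeR, bars ± SE) of tested pathway genes by list, orange bars are list medians and the blue diamond is Sst at -2.78. No point passed the threshold, and the value of Adcy7 at the far right depends on the fit because SST libraries had 0 reads.

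The genes whose level was most like that of Sst over the 8 libraries were Hmgn3, Psmb6, Jkamp, Atp6v0b and Kif3a, with Pearson correlations of log2(TPM + 1) of 0.969, 0.9355, 0.933, 0.933 and 0.917 among 8076 genes of at least 10 TPM on average. Hmgn3 was 75.0, 252.9, 123.8 and 129 TPM in PKCd replicates 1 to 4 and 425.4, 285.9, 285.1 and 313.6 TPM in SST replicates 1 to 4, highest among PKCd libraries in replicate 2. Over the 7 libraries without PKCd replicate 2, these 5 genes had correlations of 0.909 to 0.978 with Sst and ranked between place 2 and place 31, so the order rests in part on that library. For Sstr2 the nearest were Crmp1, Gpr85, Myrf, Minar2 and Xrcc3, at 0.981, 0.9525, 0.909, 0.904 and 0.901. Each of these was highest in SST replicate 2, at 54.0, 45.3, 46.2, 72.7 and 64.9 TPM in that order. Sstr2 was read in 3 libraries, so its correlations rest on few values, and they were not rerun without SST replicate 2. The correlations of Sst and of Sstr2 are descriptions over 8 libraries that differ in depth and cell makeup.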

How the data were processed

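Each estimated count, and each TPM, was made by the authors per RefSeq transcript with kallisto, which the columns match per the file headers. Version 0.43.0 of it is listed in the submitters' processing notes beside BWA 0.7.12, whose use is unstated, and the mm10 build. Per the labels' protocols, cDNA was amplified by SMARTer chemistry. TPM values, as deposited, are scaled to transcript length and to 1 total per library and keep no depth. Targets (30404) were named from RefSeq (30076) or GENCODE (151) and summed to 20692 genes; counts were rounded.

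The fit was edgeR 4.0.16 in R 4.3.3 (quasi-likelihood, TMM, default filter, terms for age class and population), Benjamini-Hochberg over all genes, threshold 0.05. It was also run on simulated counts without an age effect, and the outcome is not given here. Single levels took exact permutation tests in scipy 1.17.1. Alternatives used DESeq2 1.42.0 and limma 3.58.1, other scaling, filters and pseudocounts, and left out libraries. Members and lists were chosen with earlier results of these data known. Named pathway genes are those past the threshold and each list's highest and lowest; all others were named after their values were seen, and 1 gene of these lists is not reported here. Mice differed between libraries, so p-values hold animal, sorting and amplification spread; limits at 0 reads (3 counts) cover counting error only.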

Additional observations from a re-analysis of the deposited data

Results flagged for a closer look

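In 6 of 11 sets of 4 libraries, 1 library stood far from the other 3. The usual chance rate of about 1 in 20 does not apply to 5 of these, because the other 3 libraries were at 0 and any read then sets the library apart. It is not given for Sst either, because it assumes normally spread values and the other 3 PKCd libraries held 7 Sst reads. The 11 sets also overlap, since they include the receptor sum. Sst in PKCd replicate 2, at 222.7 TPM from 662 reads, stood apart from the other PKCd libraries, which reached 13.7 TPM. In PKCd replicate 1, Sstr2 at 6.23 TPM (97 reads) and Sstr3 at 1.10 TPM (49 reads) stood apart from 0 in the other 3. The remaining cases rest on 1 read each: Sstr4 at 0.922 TPM and Sstr5 at 0.460 TPM in PKCd replicate 4, and Sstr4 at 0.527 TPM in SST replicate 4.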

How the results depend on the processing

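The log2 fold change of Sst, PKCd minus SST, kept its sign and stayed short of the threshold under all 20 alternatives, from -5.99 to -1.36 (adjusted p 0.129 to 0.9997). It was -5.18 with limma-voom, -4.22 and -4.79 with limma on log2(TPM + 1) and log2(TPM + 0.1), and -4.55 with the replicate number as a block; same-numbered libraries correlated at 0.058 to 0.163 in their deviations, not above 0.1 throughout, so the numbers were not taken to pair mice. Its TPM difference had an exact p of 0.0571 to 0.125 under 12 alternatives, of which 3 against 4 libraries cannot go below 0.0571. The 0.125 came from the sign-flip test by replicate number and is the smallest value which that test can give. Neither kind of test could reach 0.05. The receptor sum kept its sign under its 12 alternatives (exact p 0.171 to 0.743). The Sstr4 difference, 0.0987 TPM, ran from -0.132 (without PKCd replicate 4) to 0.2305 TPM with 1 library left out, and the log2 fold change of Sst, older minus younger, from -2.87 to 0.72. Without PKCd replicate 2, left out after seeing the data, the interaction of Sst turned to 5.58, against -3.19 with it. Over all genes, the 32 calls between populations became 269 with no filter, 454 with DESeq2, 147 and 68 with limma on log2(TPM + 1) and log2(TPM + 0.1), 0 within each age class, 24 under the block and 10 to 52 with 1 library left out (15, 21, 10 and 17 without PKCd replicates 1 to 4, and 52, 10 and 13 without SST replicates 1, 3 and 4). The 6 calls between age classes became 2 with RLE scaling or with 10 CPM in 4 libraries, 249 with no filter, 555 with DESeq2, 0 with limma-voom, 53 and 12 with limma on log2(TPM + 1) and log2(TPM + 0.1), and 0 to 2 with 1 library left out. The cause of these changes was not tested. Depth limits low genes: a single count came to 0.0548 CPM in PKCd replicate 1 and 1.04 CPM in PKCd replicate 3.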
